A study of Mus musculus with 8 samples.

Results

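The ribosomal protein genes encode the proteins of the small and the large subunit of the cytosolic ribosome. They were chosen by symbol from the table of mRNA expression: names made of Rps or Rpl and a number, with at most 1 of the letters a, x, l or y behind it, together with Rplp0, Rplp1, Rplp2 and Rpsa. The rule took 80 of the 22298 genes, 31 of the small and 49 of the large subunit. Of these, 75 had 20 or more counts over the 4 RNA libraries, as did 9496 of all genes.

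RNA was measured in 4 populations, pro-B cells, pre-B cells, and B cells at the immature and the mature stage, which are successive steps of B cell formation in the bone marrow. All cells came from wild type female C57BL/6 mice of 8 to 10 weeks with no treatment named, and the cells of 3 mice were pooled in each library. Sorting was on live cells by B220, IgM and CD43: pro-B cells carried CD43 and no IgM, pre-B cells neither, immature B cells IgM, and mature B cells IgM with high B220. With 1 rRNA-depleted RNA library per stage there are no replicates, so each comparison is of 2 libraries and has no replicate check.

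Markers of each stage were read first. Dntt, the polymerase that adds bases at the joints of immunoglobulin genes, had 845 counts in pro-B cells and was listed at 0 in the other 3 libraries. Rag1, which cuts those genes, had 797, 89, 0 and 1 counts from pro-B to mature B cells. Ighd, the heavy chain of IgD, had 59, 13, 24 and 1607 counts in the same order. The pro-B list summed to 2321 CPM, counts per 1000000 of the column total, in pro-B cells and to 179, 44.7 and 56.5 CPM in the later stages. The B lineage list, led by Cd74, summed to 5257, 4885, 9100.2 and 13371 CPM, and the immature B list, led by Ighm, to 4337, 7530.1, 9504 and 5087 CPM. The mature B list summed to 616, 644, 1696 and 6173 CPM, which is the order of the labels. The pre-B list was at 1278 CPM in pro-B cells and 1066 CPM in pre-B cells, a sum carried by Rag1. The other 3 of its 4 genes were higher in pre-B cells, with log2 ratios of 1.53 for Rag2, 0.70 for Vpreb3 and 0.32 for Il2ra.

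Ribosomal proteins are needed in every cell, and their mRNAs are among the most abundant and the shortest of the cell. These mRNAs start with a C and a stretch of pyrimidines, the 5 prime terminal oligopyrimidine (TOP) tract, through which the mTORC1 kinase controls their translation. Early B cell precursors divide, and small resting B cells follow them.

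The starts of some members are shown as examples, because this tract is described for the family. They do not show how often it occurs, as CTTTC was missing from most of the matched promoters. Of the 80 members, 60 matched a promoter of RefSeq GRCm38.p6 by symbol, which is 75%, and under 80% these shares are void as a comparison over the family, because the 20 unmatched members could change them. The motif CTTTC was looked for from 10 bases before to 15 bases after the annotated start. It was held by 15 of the 72 matched promoters, or 20.8%, against 3.1% of all 32851 promoters, and on the other strand by 1.39% against 3.0%. A run of 8 or more C and T bases in that window was held by 30.6% of the matched promoters and 9.49% of all. Capitals mark CTTTC, and each stretch runs from 15 bases before the start through the first 15 transcribed bases. The stretches lie at chr11:114668565-114668594 on the plus strand for Rpl38, chr17:27635230-27635259 on the minus strand for Rps10, chr3:90213634-90213663 on the minus strand for Rps27, chr7:141447636-141447665 on the plus strand for Rplp2 and chr9:66946071-66946100 on the plus strand for Rps27l, a paralog of Rps27 in which this window held no CTTTC.
Rpl38: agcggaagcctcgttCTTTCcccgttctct
Rps10: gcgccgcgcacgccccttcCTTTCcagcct
Rps27: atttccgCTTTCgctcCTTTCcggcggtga
Rplp2: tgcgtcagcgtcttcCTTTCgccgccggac
Rps27l: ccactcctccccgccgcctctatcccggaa

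The column totals of the mRNA table were 867920 counts in pro-B, 240231 in pre-B, 223495 in immature B and 849350 in mature B cells. Summed over the 80 members there were 21923 counts in pro-B, 8545 in pre-B, 7517 in immature B and 29796 in mature B cells. As a share of the column total this was 25259.6 CPM in pro-B cells (95% exact Clopper-Pearson interval 24930.1 to 25591.5). It was 35568 CPM in pre-B cells (34833 to 36318). In counts the pre-B and immature B libraries were the low ones, while in CPM the pro-B library stood alone below the other 3. The sum was 33634 CPM in immature B cells (32890.2 to 34389.6) and 35081 CPM in mature B cells (34691 to 35474). These intervals, and all those that follow, cover counting error only. In bulk libraries, fewer cells of a kind and less RNA per cell cannot be told apart.

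**Figure D1:**
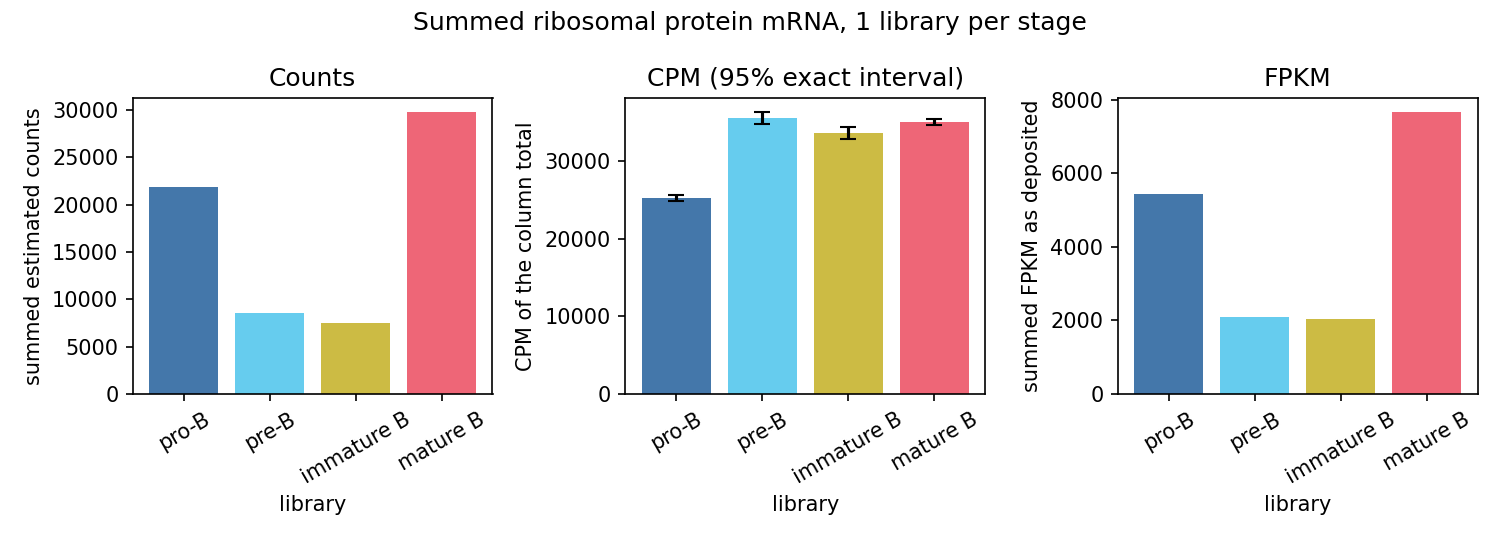
Summed ribosomal protein mRNA in the 4 RNA libraries, as estimated counts, as CPM of the column total with 95% exact intervals, and as FPKM as deposited. Bars are 1 library each; the CPM of pro-B cells is the lowest, while counts and FPKM are lowest in pre-B and immature B cells.

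The log2 ratio of the summed CPM was 0.49 for pre-B against pro-B cells (95% exact conditional binomial interval 0.46 to 0.53). This direction held in CPM but turned to -1.39 in FPKM as deposited and to -1.39 when unannotated transcripts were added to the library size. It turned to -0.10 against the other genes of the shortest 10%. The last 2 settings were chosen after seeing the data. The median log2 ratio of all genes was -2.09, -2.26 and -0.96 in these settings, in the same order. FPKM, which is scaled by transcript length and mapped fragments, summed to 5446, 2083, 2044 and 7661 over the members from pro-B to mature B cells. That was 7.21%, 8.92%, 8.68% and 9.96% of each library's FPKM total. Of the counts in the mRNA table and in unannotated transcripts together, the mRNA table held 24.5%, 6.63%, 6.65% and 24.4% in the same order. The pre-B and immature B libraries were thus low in this share as well, and its part in the ratios was not tested.

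From pre-B to immature B cells the log2 ratio of the sums was -0.08 (-0.13 to -0.04), and it turned to 0.06 against the other genes of the shortest 10%. From immature B to mature B cells it was 0.06 (0.02 to 0.10), and the median of the members' own ratios was -0.01. In FPKM as deposited the same step was 1.91. Mature B against pro-B cells, which share their libraries with the steps before, gave 0.47 (0.45 to 0.50), and every scale run gave a ratio above 0 for this pair, from 0.42 to 0.65.

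The small subunit members summed to 9047, 12822, 11709.9 and 13374 CPM from pro-B to mature B cells. The large subunit members summed to 16213, 22746, 21924 and 21707 CPM. The counts of the large subunit were 1.79, 1.77, 1.87 and 1.62 times those of the small one, so that the mature B library had the lowest ratio of the 4. For mature against immature B cells the log2 ratio was 0.19 (0.13 to 0.25) for the small and -0.01 (-0.06 to 0.03) for the large subunit.

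Single members spread widely in each library. Among the 75 with enough counts, CPM ran from 13.8 to 1153 around a median of 233.9 in pro-B cells. The median was 399.6 CPM in pre-B, 331 in immature B and 309.6 in mature B cells. The 10 members with the most counts held 35.0%, 35.8%, 36.0% and 35.6% of the sum. The order of the members by FPKM was most alike in pro-B and mature B cells, with a Spearman rho of 0.927 over 75 members, and least alike in pre-B and mature B cells, at 0.762. These are correlations across genes, which share a library's depth and are not replicates. Over all 9496 genes the same pairs had 0.713 and 0.539.

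Rplp0, the base of the stalk that calls translation factors to the ribosome, had the most counts in pro-B cells, with 1001, 208, 299 and 1115 counts from pro-B to mature B cells. Its CPM was 1153, 866, 1338 and 1313, so pre-B was the low library. Rpl19, of the large subunit, led in pre-B cells and had 790, 412, 318 and 1142 counts. Rpl23, also of the large subunit, led in immature B cells and had 692, 342, 326 and 1145 counts. Rpl7, of the large subunit as well, led in mature B cells with 980, 357, 186 and 1214 counts, and its CPM of 834 in immature B cells was below the 1129, 1486 and 1429 of the others. Rps6, the subunit protein that S6 kinase phosphorylates, had 809, 1459, 1435 and 1263 CPM. Rps12 had 668, 1432, 1374 and 865 CPM. Both were lowest in pro-B cells in CPM, while in FPKM as deposited Rps6 was lowest in pre-B and Rps12 in immature B cells. Rpsa, the laminin receptor of the small subunit, had 822, 895, 1069 and 1345 CPM and so was higher in each later library in CPM, while its FPKM as deposited was lowest in pre-B cells. Rpl4 had 968, 891, 658 and 1111 CPM, and Rps3 had 832, 825, 804 and 1136 CPM.

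**Figure D2:**
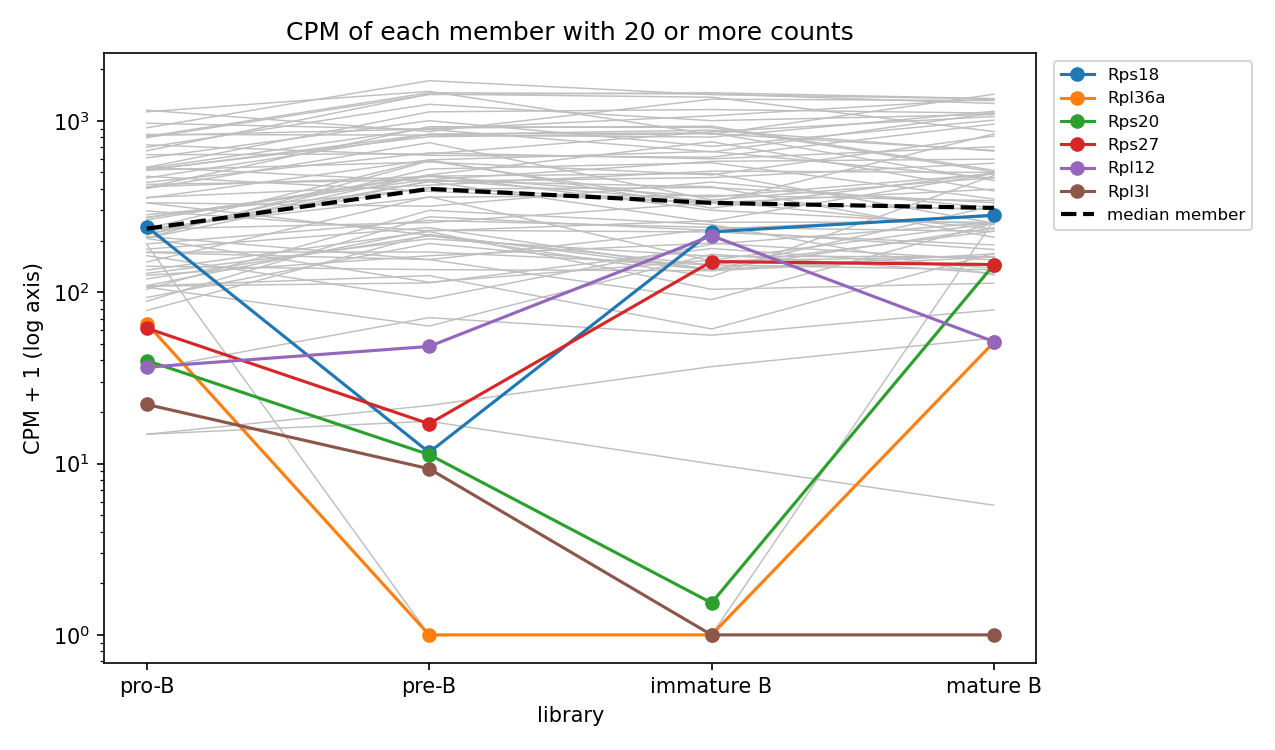
CPM plus 1 on a log axis of the 75 members with 20 or more counts, 1 line per member over the 4 libraries, with 6 members coloured and the median dashed. Most lines run level, and Rpl36a is at 0 in pre-B and immature B cells.

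Most ribosomal protein genes held a larger share of the mRNA counts in the pre-B library than in the pro-B one, in CPM but not in FPKM as deposited. The median of all genes was below 0 in CPM and turned to 0.14 with 5 counts added. In pre-B against pro-B cells, 15 of the 75 members were 2-fold or more higher, against 18.5% of all genes, and 6 were 2-fold or more lower, against 33.1% of all genes. A ratio above 1 was found for 54 of 75, against 39.9% of all genes. The median log2 ratio was 0.51 in members and -0.37 in all genes, a difference of 0.88, which was 0.52 with 5 counts added and 0.65 in FPKM as deposited. The share at or past 2-fold higher was near that of all genes, and the share lower was below it. With DESeq2 size factors the split was 25 higher and 5 lower. With FPKM rescaled to equal totals it was 6 and 9, and with 5 counts added 17 and 3. It was 0 and 59 with FPKM as deposited, 0 and 57 with unannotated transcripts in the library size, and 1 and 11 against those short genes. On these last scales the median log2 ratio of all genes was -2.09, -2.26 and -0.96 in the same order. Members had -1.44, -1.38 and -0.08 there, above all genes each time. The shares of all genes past 2-fold were not counted on these other scales.

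Rps29, a small zinc-binding protein of the small subunit, had 76, 66, 51 and 150 counts, and its log2 CPM ratio of pre-B to pro-B was the highest, 1.65 (1.15 to 2.15). Rpl24, of the large subunit, had 89, 72, 55 and 106 counts and a log2 ratio of 1.54 (1.08 to 2.01). Noncoding transcripts under the Rpl24 symbol had counts equal to 49.7%, 28.2%, 100% and 23.3% of these. Rps16, of the small subunit, had 179, 140, 74 and 258 counts and 1.5 (1.17 to 1.83). All 3 intervals lay above 1, and in FPKM as deposited all 3 were lower in pre-B cells, at 29.5 against 35.9 for Rps29, 18.8 against 25.03 for Rpl24 and 21.97 against 29.7 for Rps16. The median log2 ratio of all genes in FPKM as deposited was -2.09 for this comparison.

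The lowest ratios came from members listed at or near 0. Rpl36a, of the large subunit, had 56 counts in pro-B and 43 in mature B cells and was listed at 0 in the libraries between. Every cell uses such genes, so a 0 is reported only as listed and no fold is given. Rps18 had 209, 2.55, 50 and 238 counts, with a log2 ratio of -4.25 (-6.56 to -2.70) for pre-B against pro-B cells. The pre-B value lay under a floor of 3 counts, so the size of this ratio is uncertain. Noncoding transcripts under the Rps18 symbol had counts equal to 83.9% of its count in pro-B and 100% in pre-B cells.

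Multiple gene copies bear on these values. Rps18 has copies listed as Rps18-ps5 and Rps18-ps6, and with them the counts were 234, 15, 57 and 254, of which the copies held 83.1% in pre-B and 6.16% in mature B cells. In CPM, Rps18 with its copies had 270, 63.0, 255 and 299, so pre-B was still the low library. Rpl10 alone had 229, 116, 169 and 330 counts, and its copy Rpl10-ps3 had 370, 93, 40 and 266. Their sums of 599, 209, 209 and 596 counts gave 689.9, 870.0, 933 and 702 CPM. Rps27 had 53, 3.86, 34 and 122 counts and Rps27rt 34, 33, 10 and 45, which together gave 100.2, 154, 197 and 197 CPM. Rpl36a with its paralog Rpl36al had 98, 41, 15 and 105 counts and 113, 169, 67.1 and 123 CPM, so that with the paralog added pre-B was above pro-B. Because reads of such copies can be split between them by the counting, the values of Rps18, Rpl10, Rps27, Rpl9 and Rpl36a are uncertain.

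The pre-B and immature B libraries were alike in most members. The 2 highest ratios came from members with under 4 counts in pre-B cells. In immature B against pre-B cells, 5 of 75 members were 2-fold or more higher, against 20.2% of all genes, and 6 were 2-fold or more lower, against 21.4%. A ratio above 1 was found for 33 of 75, against 52.8%. Against those short genes the split was 5 higher and 3 lower, and with 5 counts added 4 and 2. Both shares of members were below those of all genes, and the median log2 ratio was -0.04 in members and 0.10 in all genes. Rps18 was the highest at 4.16 (2.53 to 6.49), Rps27 came next at 3.07 (1.70 to 5.15), and both followed a pre-B value of under 4 counts. That of Rps18 was under the floor of 3 counts, so the size of its ratio is uncertain. Rpl12, of the large subunit, had 31, 11, 48 and 43 counts and a log2 ratio of 2.13 (1.26 to 3.32). Rpl3l, the muscle paralog of Rpl3, had 18, 2, 0 and 0 counts, and so no fold is given here, both libraries being at or under a floor of 3 counts. The same held for Rps20, with 34, 2.47, 0.12 and 122 counts. Rps10 had 129, 86, 34 and 136 counts, with a log2 ratio of -1.24 (-1.85 to -0.65), and its CPM was 151 in immature B and 149 in pro-B cells.

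Immature and mature B cells had near equal summed shares in CPM, while FPKM as deposited was higher in mature B cells for nearly all members. In mature B against immature B cells, 8 of 75 members were 2-fold or more higher, against 27.8% of all genes, and 3 were 2-fold or more lower, against 24.1%. A ratio above 1 was found for 37 of 75, against 53.6%. The median log2 ratio was -0.01 in members and 0.14 in all genes, and the order turned with 5 counts added, at -0.07 and -0.40, and in FPKM as deposited, at 1.89 and 1.81. In FPKM as deposited the split was 66 higher and 0 lower, with the unannotated transcripts in the library size 67 and 0, in FPKM rescaled to equal totals 12 and 1, against those short genes 23 and 2, and with 5 counts added 8 and 5. The median of all genes was 2.02 with the unannotated transcripts and 0.72 against those short genes, where members had 1.87 and 0.57. Shares of all genes past 2-fold were not counted on these scales. Rps20 had 0.12 counts in immature B cells and Rpl36a was listed at 0, and no fold is given for them. Rpl12 had the lowest log2 ratio, -2.08 (-2.71 to -1.46). Its counts per FPKM were 4.406 in immature B and 6.565 in mature B cells, so the size of this ratio is uncertain. Rps27l, with 12, 4, 2 and 4 counts, had a log2 ratio of -1.08 that its interval of -3.73 to 2.54 did not separate from 0.

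The first and the last stage had libraries of similar depth. Most members held a larger share in mature B cells on every scale run. In mature B against pro-B cells, 8 of 75 members were 2-fold or more higher, against 11.9% of all genes, and 2 were 2-fold or more lower, against 21.6%. A ratio above 1 was found for 66 of 75, against 43.1% of all genes. The median log2 ratio was 0.42 in members and -0.16 in all genes. Rpl38, of the large subunit, had 12, 5, 8 and 45 counts and the highest log2 ratio, 1.90 (0.995 to 2.99). Rps20 had 1.87 (1.32 to 2.47), though its counts per FPKM of 18.3 put its model among long genes, where a median member had 3.58. Rps21, of the small subunit, had 67, 52, 30 and 201 counts and 1.61 (1.21 to 2.04). Below them, Rpl3l went from 18 to 0 counts, at least 5.98-fold lower against that floor, and Rps27l had -1.44 (-3.64 to 0.17). Rpl36a was next at -0.36 (-0.96 to 0.25). The 2 members past 2-fold lower were thus paralogs with few counts.

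**Figure D3:**
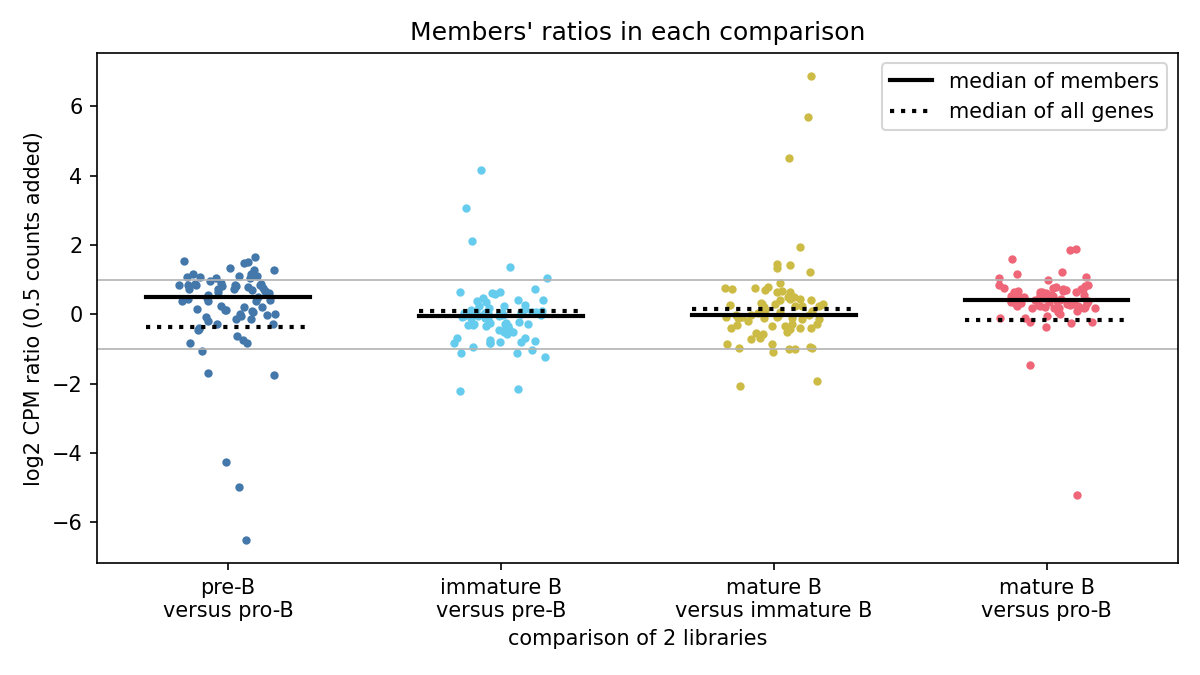
Log2 CPM ratios of the 75 members in the 4 comparisons of 2 libraries, 1 point per member, with the median of members as a full line, that of all genes as a dotted line and grey lines at 2-fold. Members sit above all genes in pre-B and in mature B against pro-B cells, with medians of 0.51 and 0.42. In FPKM as deposited the first of these is below 0 at -1.44, where all genes have -2.09.

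The stalk of the large subunit is made of Rplp0 and pairs of Rplp1 and Rplp2. Rplp1 had 235, 114, 110 and 214 counts and 271, 475, 492 and 252 CPM. Rplp2 had 92, 15, 37 and 109 counts and 106, 62, 166 and 128 CPM. Against pro-B cells, pre-B cells were thus the high side in CPM for Rplp1, though not in FPKM as deposited, and the low side for Rplp2, with log2 ratios to pro-B of 0.81 (0.47 to 1.14) and -0.72 (-1.66 to 0.03). Per length, Rplp0 stood above both partners in pro-B and mature B cells, at 202.6 and 232 FPKM against 86.6 and 81.1 for Rplp1 and 37.7 and 41.1 for Rplp2. In pre-B cells Rplp0 and Rplp1 were level, at 39.6 and 39.8 FPKM with Rplp2 at 5.13, and in immature B cells the 3 had 68.7, 41.9 and 14.2.

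Rpl5 and Rpl11 bind the 5S rRNA, and free of the ribosome they hold back Mdm2. Rpl11 had 457, 218, 208 and 436 counts and 527, 907, 931 and 513 CPM, higher in the middle stages in CPM but lower there in FPKM as deposited, at 100.9, 47.8, 53.3 and 99.1. In FPKM as deposited the median log2 ratio of all genes was -2.09 for pre-B against pro-B cells. Rpl5 was listed at 0 in 3 libraries and at 9.86 counts in pre-B cells. Rps4x, Rpl39 and the testis paralog Rpl10l were listed at 0 in all 4 libraries, and Rpl39l had 2 counts in pro-B cells alone. Rpl22 had 148, 41, 32 and 192 counts, and its paralog Rpl22l1, outside the symbol rule, had 36, 13, 10.06 and 5.29. The full Rpl3 had 628, 151, 137 and 813 counts, so its muscle paralog held few of the reads. Of the 11 paralog genes with enough counts, 1 was 2-fold or more higher and 3 were lower in mature B than in pro-B cells, shares of 9.09% and 27.3% that were near the 11.9% and 21.6% of all genes, with a median of 0.34.

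Rps19 is the gene most often mutated in Diamond-Blackfan anemia. All 10 genes of the list for that disease were in the table and 9 had enough counts. Rps19 had 154, 57, 30 and 270 counts and a log2 ratio of mature B to pro-B of 0.84 (0.55 to 1.14). Rps24, another of them, had 411, 93, 74 and 712 counts and 0.82 (0.65 to 1.003). Rpl26, whose product also binds p53 mRNA, had 288, 76, 98 and 263 counts and -0.10 (-0.35 to 0.15). Rps7 had 527, 241, 158 and 857 counts and 0.73 (0.57 to 0.89). Rps26 had 165, 63, 53 and 192 counts, and Rpl35a had 111, 49, 36 and 136. For mature B against pro-B cells the 9 had a median of 0.25, below the 0.42 of all members. Of them, 0 were past 2-fold in either direction, against 11.9% higher and 21.6% lower of all genes. In pre-B against pro-B cells their median was 0.68, above the 0.51 of all members.

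Members were short, and ratios moved with length over all genes. Counts per FPKM, which within a library are proportional to transcript length, could be had for 8720 genes and all 75 members. For single members they differed between libraries, as for Rpl37 with 2.97, 2.90, 3.43 and 2.56 from pro-B to mature B cells. Rpl12 had 6.754, 7.138, 4.406 and 6.565, so both its ratios with immature B cells are uncertain in size. Of the members, 61 were in the shortest 10% of genes, or 81.3%. For pre-B against pro-B cells, the median log2 ratio of the other genes was 0.23 in the shortest 10% and -0.95 in the longest. For mature against immature B cells it was -0.55 in the shortest and 0.69 in the longest. In the shortest 10%, members had 0.68 for the first of these comparisons and -0.07 for the second, both medians above those of the other short genes. The ratio of all members' sums to the summed counts of those genes gave -0.10 and 0.63, so that in pre-B against pro-B cells the sums went the other way. For mature B against pro-B cells, members there had 0.41 and other genes -0.39. The part of length in the members' ratios was not tested.

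**Figure D4:**
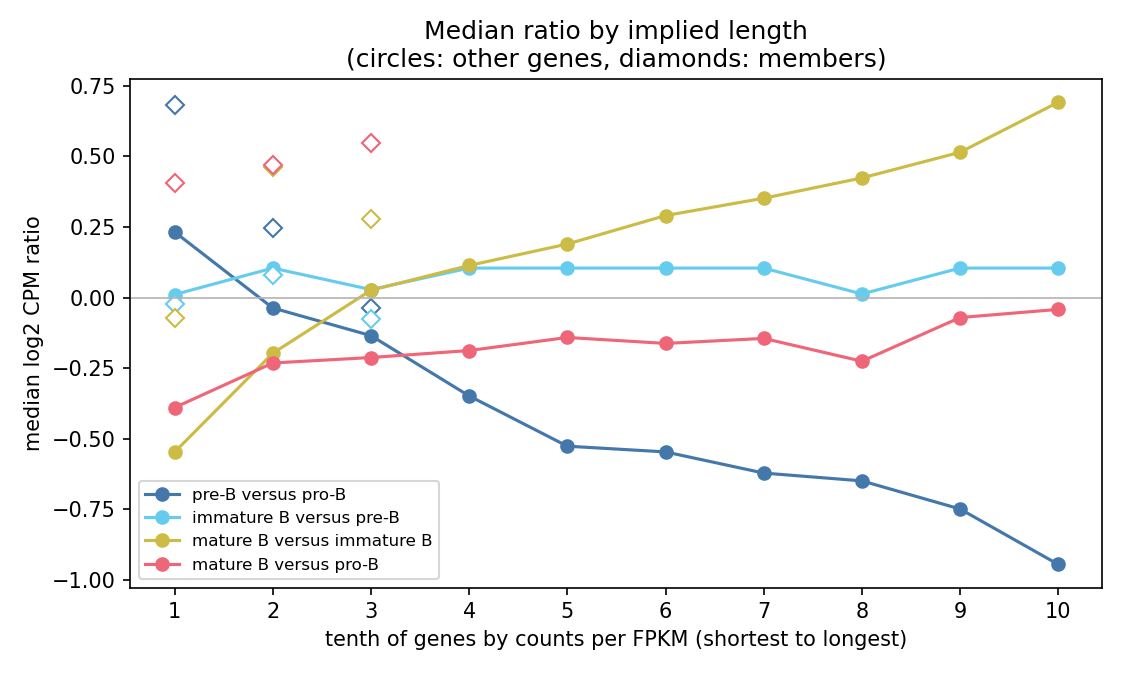
Median log2 CPM ratio in each of 10 equal groups of genes by counts per FPKM, from the shortest to the longest, with circles for other genes and diamonds for members where a group held 3 or more. Other genes run from 0.23 to -0.95 in pre-B against pro-B cells and from -0.55 to 0.69 in mature against immature B cells.

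Other lists of the translation machinery were set beside the members and beside all genes, of which 11.9% were 2-fold or more higher and 21.6% lower in mature B against pro-B cells. Of the ribosomal proteins that the symbol rule leaves out, 3 of the small subunit summed to 1122, 1737, 1679 and 2004 CPM, with 0 past 2-fold in mature B against pro-B cells and a median of 0.84. Of the large subunit, 5 summed to 244, 492, 294 and 338 CPM, with 1 higher and 1 lower in that comparison and Rpl22l1 lowest at -2.61. The 20 other TOP mRNAs, which include the elongation factors, summed to 16382, 14899, 12552 and 19055 CPM, with Eef1a1 the most abundant at 5112, 742, 651 and 6227 counts. For mature B against pro-B cells, 2 of 20 were 2-fold or more higher and 0 lower, with a median of 0.17. Nap1l1, a histone chaperone, had the highest ratio at 1.07 and Eif4b came next at 1.04. Vim and Hnrnpa1 were the lowest at -0.76 and -0.63. Of 46 initiation factors, 2 were higher and 5 lower, with a median of -0.04, Eif2b3 highest at 1.33 and Eif4e3 lowest with 43 counts in pro-B and 1.02 in mature B cells.

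Genes that build the ribosome had other medians than its proteins. The 53 genes of ribosome biogenesis had a median log2 ratio of -0.63 for pre-B against pro-B cells, where members had 0.51 and all genes -0.37. Of these genes 6 were higher and 22 lower, or 11.3% and 41.5%, against 18.5% and 33.1% of all genes. For mature B against pro-B cells they had 6 higher and 7 lower and a median of -0.04, with Sbds highest at 1.80 and Mybbp1a at 60 counts in pro-B cells and 0 elsewhere. RNA polymerase I, which makes the rRNA precursor, had 14 genes with medians of -0.73 and -0.11 in these comparisons, with Cd3eap highest at 1.24 and Taf1d lowest. The 63 mitochondrial ribosomal proteins had 24 higher and 8 lower in pre-B against pro-B cells, or 38.1% and 12.7% against 18.5% and 33.1% of all genes, with a median of 0.65, and a median of -0.80 in mature against immature B cells, where members had -0.01. For mature B against pro-B cells they had 3 higher and 18 lower, with Mrps6 highest at 1.11 and Mrpl54 lowest.

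Regulators of the family were read for their own mRNA only. The 13 genes of the mTORC1 pathway had 0 higher and 1 lower for mature B against pro-B cells, where all genes had 11.9% and 21.6%, with a median of -0.12, from Rheb at 0.71 to Mtor at -1.13. The 8 of the Myc network had 1 higher and 0 lower, too few genes to set apart from those shares, and a median of -0.30. That gene was Myc itself, an activator of ribosome genes, with 48, 4, 13 and 190 counts and a log2 ratio of 2.01. Mxd4, which competes with it for Max, was the lowest at -0.90. Markers of proliferation summed to 1669.5, 695, 336 and 463 CPM, with Mki67 the most abundant, so they were highest where summed ribosomal protein CPM was lowest. Their part in that result was not tested.

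**Figure D5:**
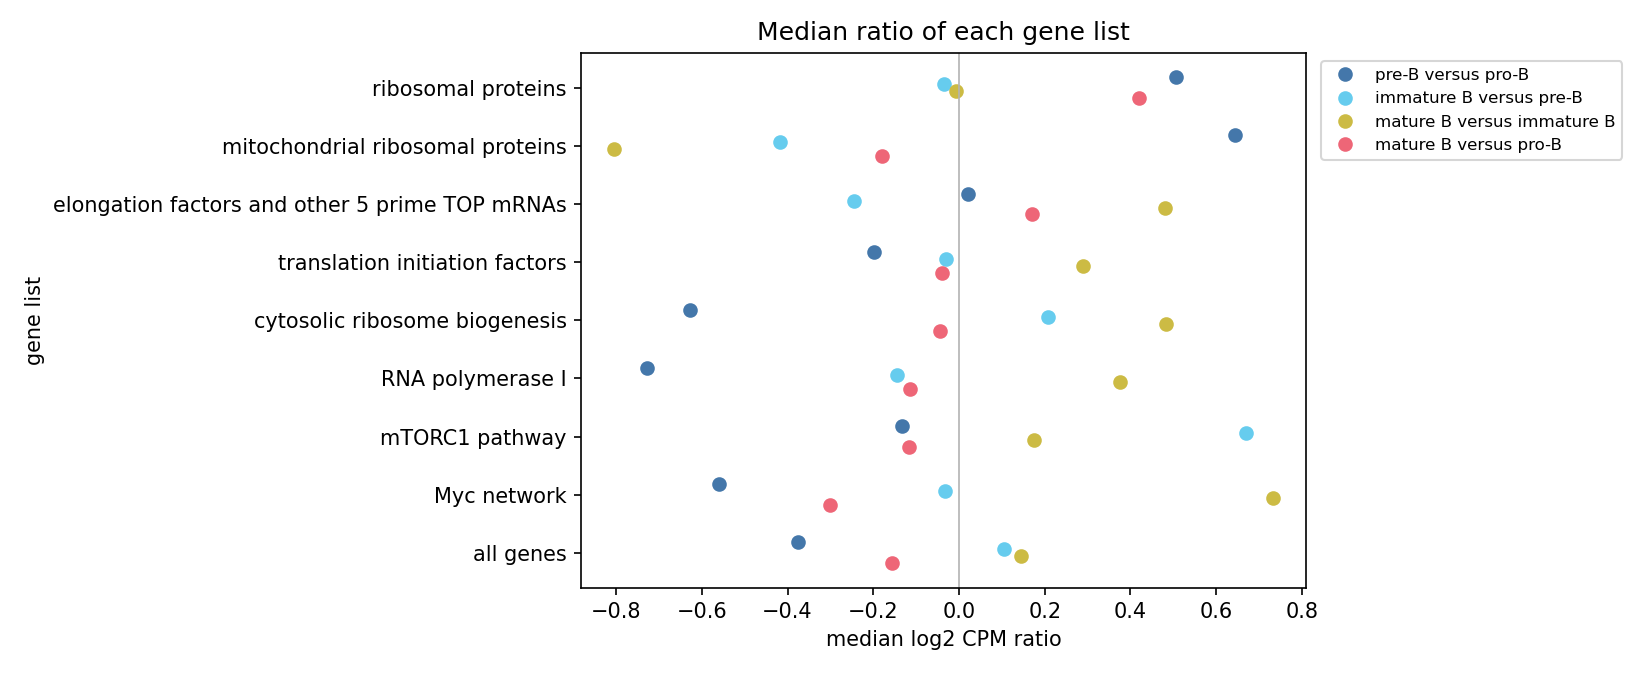
Median log2 CPM ratio of the genes with 20 or more counts in each list, for the 4 comparisons of 2 libraries, with all genes at the foot. In pre-B against pro-B cells the ribosomal proteins had 0.51 and ribosome biogenesis -0.63.

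Markers of other cells were present in most libraries. Of 11 granulocyte and monocyte genes in the table, 10 had enough counts, and the list, led by Lyz2, summed to 1568, 1839.9, 1400.5 and 1228 CPM, with Csf1r listed at 0 in all 4 libraries. The erythroid genes, 6 of 9 with enough counts and led by Hbb-bs, summed to 545, 458, 311 and 288 CPM, with Epor at 0 in 3 of the libraries. Genes of plasmacytoid dendritic cells, led by Irf8, which B cells also express, summed to 1902, 470.4, 967 and 867 CPM, and Siglech had 105, 0, 4 and 0 counts. T and NK genes, 2 of 6 with enough counts, summed to 205 CPM in pro-B cells, led by Gzma, to 0 in the next 2 libraries and to 5.89 CPM in mature B cells, with Cd3e at 0, 0, 0 and 1 counts. Plasma cell genes, led by Irf4, which the paper names among the regulators of B cell development, summed to 669.7, 622, 482 and 609.9 CPM. Of these 5 genes, 1 had a ratio above 1 in mature B against pro-B cells. That was Irf4 at a log2 ratio of 0.50, while Jchain was lowest at -2.5 and Xbp1 next at -1.69. The part of such cells in the ribosomal protein values was not tested.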

How the data were processed

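The authors cleaned reads with fastp 0.18.0, removed rRNA with Bowtie2 2.2.8, mapped with HISAT2 2.1.0 (strand-specific) and quantified with StringTie 1.3.4. The mRNA and noncoding tables hold estimated counts deposited by the authors without normalization. The FPKM values deposited by the authors are scaled by transcript length and mapped fragments. The circRNA table holds back-spliced read counts deposited by the authors. The labels name build mm9. The 4 small RNA libraries were not used.

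CPM is counts per 1000000 of the column total, 223495 to 867920 counts. Ratios had 0.5 counts added. Genes with 20 or more counts over the 4 RNA libraries were compared, and 2-fold was the threshold. Shares have exact Clopper-Pearson and ratios exact conditional binomial 95% intervals, on rounded counts. With 1 library per stage no test or p-value was computed. FPKM ratios had 0.1 added. Named members came from the 5 with the most counts per library, the 3 highest and lowest ratios per comparison and the stalk, 5S, paralog and Diamond-Blackfan lists; genes of other lists came from the 2 highest and 2 lowest ratios of mature B against pro-B cells and the most abundant one, and stage markers from the list's defining genes. Rps18-ps5, Rps18-ps6, Rpl10-ps3 and Rps27rt were chosen after their values were seen. Members and lists were chosen with earlier results of these data known. Alternatives were FPKM, rescaled FPKM, TMM factors, DESeq2 size factors, totals without immunoglobulin genes, added members, medians, filters and pseudocounts, and, chosen after seeing the data, 2 library sizes and counts without noncoding transcripts. The ratio functions were tested on simulated data. Sequences came from RefSeq GRCm38.p6. Python 3.11.15, numpy 2.4.6, pandas 2.3.3, scipy 1.17.1, matplotlib 3.10.9, R 4.3.3, edgeR 4.0.16 (TMM) and DESeq2 1.42.0 were used.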

Additional observations from a re-analysis of the deposited data

Results flagged for a closer look

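The table of noncoding transcripts was read apart from the mRNA table. It held counts under ribosomal protein symbols above the limit that a count of 0 allows. Of 63 transcripts under such symbols, 36 had any counts, from 19 symbols. They summed to 1197 counts in pro-B, 525 in pre-B, 668 in immature B and 2215 in mature B cells, totals equal to 5.46%, 6.14%, 8.89% and 7.43% of the members' counts. Of the 19 symbols, 18 were members, and for these the noncoding counts in no library exceeded the gene's own count by over 0.05, so they can be part of it. The other, Rps4l, is not in the mRNA table and had 3 counts in pro-B and 2 in immature B cells. A single transcript of Rpl23 had 549, 292, 293 and 1014 counts from pro-B to mature B cells, beside gene counts of 692, 342, 326 and 1145. For Rps18 the noncoding transcripts had counts equal to 83.9%, 100%, 91.6% and 98.6% of the gene count in the same order. For Rpl24 in immature B cells the noncoding count and the gene count were both 55.28. Whether the gene counts contain the noncoding ones was not tested further.

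The same table held small nucleolar RNA host transcripts, which carry a TOP tract of their own. Over 9 hosts they summed to 240 counts in pro-B, 69 in pre-B, 83 in immature B and 329 in mature B cells, and to 277, 288, 371 and 387 CPM of the mRNA total. These values have no replicate check.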

How the results depend on the processing

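Under the 10 alternatives for each summed ratio and 11 for each count of members past 2-fold, 58 of 84 values stayed within the counting interval or 1.5 times the main count. FPKM as deposited gave summed log2 ratios of -1.39 for pre-B against pro-B (main 0.49), -0.0273 for immature B against pre-B (main -0.08) and 1.91 for mature B against immature B (main 0.06), with 59 members past 2-fold in the first (main 21) and 66 in the last (main 11). The median of all genes on that scale was -2.09 in the first and 1.81 in the last. Rescaled FPKM gave 0.31 and 0.20 for the first and the last of these. TMM gave 0.15 for mature B against immature B and 0.62 for mature B against pro-B (main 0.47), and DESeq2 size factors 0.67 for pre-B against pro-B and 0.65 for mature B against pro-B. The median of members gave -0.0357, -0.00674 and 0.42 for immature B against pre-B, mature B against immature B and mature B against pro-B. With 5 counts added, 6 members passed 2-fold in immature B against pre-B (main 11). Chosen after seeing the data, unannotated transcripts in the library size gave -1.39 and 1.93 for pre-B against pro-B and mature B against immature B, with 57 and 67 members past 2-fold. All genes had medians of -2.26 and 2.02 in that setting. The other genes of the shortest 10% as library size gave -0.0951, 0.0557, 0.634 and 0.595 over the 4 comparisons in order, with 12 and 25 members in pre-B against pro-B and mature B against immature B. Leaving out noncoding transcripts gave 0.45 for mature B against pro-B. The cause was not tested. No paired analysis was possible because each stage has 1 RNA library and all carry the same replicate number. A count of 0 allows up to 3.46, 12.5, 13.4 and 3.53 CPM from pro-B to mature B, so the pre-B and immature B libraries limit what low members can show.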

Other observations

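Of the 1005 circRNAs listed, 1 had a ribosomal protein gene as its source, an antisense circRNA at Rpl22 with 2 back-spliced reads in immature B cells and 0 in the other libraries, under the 3 counts that a 0 allows.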
